A study of Drosophila melanogaster with 8 samples.

Results

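The spermathecae of wild-type Drosophila melanogaster females were compared with the rest of the wild-type lower reproductive tract, gene by gene, on 2 microarrays per organ. A probe set, the group of probes that reads 1 transcript, was a member of the comparison when its signal was at or above the median of its own array on both arrays of at least 1 of the 2 organs. This chose 9437 of the 18769 probe sets that are not controls, and they covered 7446 genes with a single symbol. Levels chose the members, not a test of the difference between the organs, but a member that passed through only 1 organ was bound to be higher there if it was called.

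All females were 4-day-old mated adults. Both groups were wild type in the labels, which name no strain, and the series also holds 2 arrays per organ from females with the Hr39(04443) allele of the nuclear receptor gene Hr39. Those mutant arrays were used to estimate the spread and, at the end, to ask which organ differences were also found in another set of animals. Each group has a first array and 1 that the labels mark as a duplicate, and since no label speaks of separate animals, the p-values reflect array-to-array spread that may be technical. In RNA of whole organs, fewer cells of a type and less RNA per cell cannot be told apart.

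A spermatheca is a cuticle-lined capsule that stores sperm after mating, ringed by large secretory cells that empty into its lumen through fine ducts. The rest of the fly's lower tract is, by contrast, built mainly for moving and holding eggs: an epithelium with its own cuticle lining, a heavy coat of muscle, nerves and tracheae, and smaller glands and another sperm store. Hr39 and the Runx factor lozenge are known to be needed for spermathecae to form.

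Values are MAS5 signals, intensities on a linear scale, and differences are spermathecae minus lower tract on the log2(signal + 4) scale with the standard error (SE). A difference was called when limma gave it a Benjamini-Hochberg adjusted p below 0.05 over all 10113 probe sets tested in the series. Correlations across probe sets were 0.968 between the spermatheca arrays, 0.963 between the lower tract arrays, and 0.776 to 0.792 between organs. An array of each organ stood apart. On spermathecae replicate 1 the Act5C control read 24.9 times as high at its 3' end as at its 5' end, against 3.56 to 4.80 times on the 7 others. This ratio is known to grow as RNA degrades, but the controls were not alike. For Gapdh the ratio was 5.87 against 2.46 to 4.05 on the others. For eIF4A it was 3.17, within the 2.75 to 3.35 of the others. Lower tract replicate 1 read higher than replicate 2 for several germline transcripts, described below. Counts without both of these arrays are given with the overall result.

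The scale also needs a statement before small differences are read. The authors brought every array to the same trimmed mean of 150.01. The 18 hybridisation spike-in probe sets, which read foreign transcripts added before hybridisation, were all higher on both spermatheca arrays than on both lower tract arrays, by a mean log2 difference of 0.95 (range 0.71 to 1.19). Scaling the arrays to these spike-ins instead, an alternative chosen after seeing the data, took the median of all probe sets from 0.07 to -0.82. Differences of about 1 or less on the log2 scale therefore depend on the scaling, and counts of gene groups are given on the authors' scale and with spike-in scaling.

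Of the 10113 probe sets, 4418 (43.7%) were called, 2243 higher in spermathecae (22.2%) and 2175 lower (21.5%). Members accounted for 2227 of the higher calls and 2125 of the lower ones, and the other 676 probe sets tested, which entered through the mutant arrays, for the remainder. Without both arrays that stood apart the counts were 2236 higher and 1881 lower. With spike-in scaling they were 386 higher and 4502 lower, so that higher calls made up 7.90% of all calls against 50.8%; with each array centred on its median they made up 60.6%.

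The large differences were less even. Beyond a log2 difference of 2, which is 4-fold, 286 probe sets were higher in spermathecae and 832 were lower. Beyond 3 the counts were 110 and 366, and beyond 5 they were 32 and 68. Over all settings other than spike-in scaling, the number lower beyond 2 was 2.10 to 2.95 times the number higher, and with spike-in scaling it was 13.3 times. Probe sets above the array median in both organs showed the same lean, with 188 higher and 420 lower beyond 2. A total of 738 members were above the median only in the spermathecae, where 225 were called higher, and 951 only in the lower tract, where 618 were called lower. Having been chosen through 1 organ, these could only be called in that organ's direction. The threshold lies low on the signal scale. CG15153, just inside, read 1.89 and 5.99 in spermathecae and 22.6 and 22.1 in the lower tract, and CG33631, just outside, read 33.2 and 18.5 against 14.7 and 4.89.

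**Figure D1:**
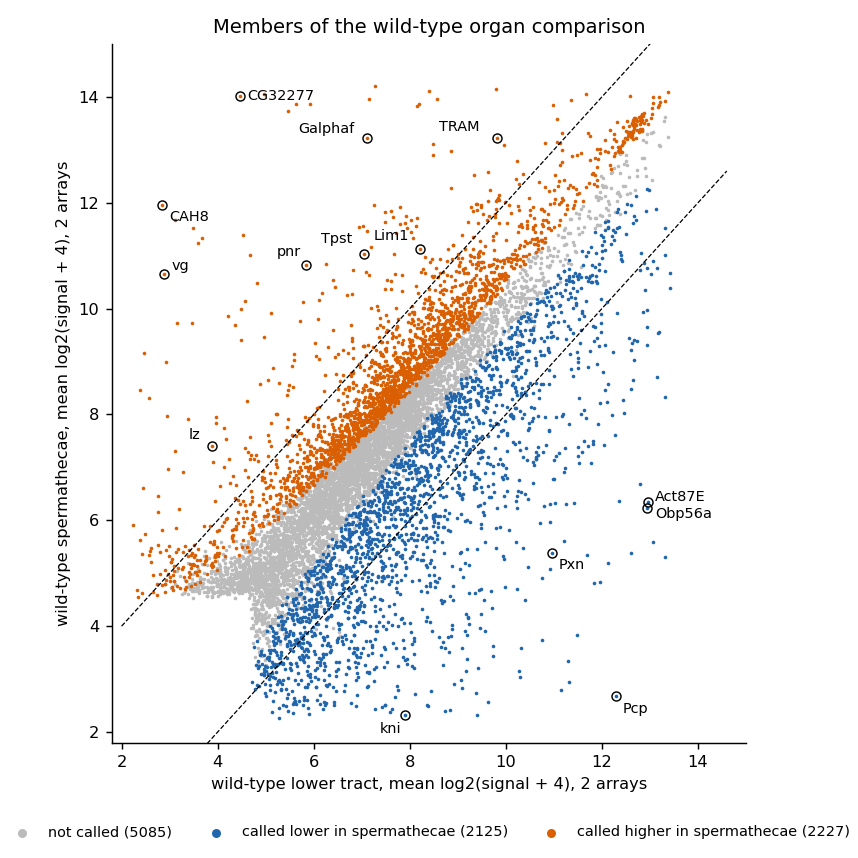
Mean signal of each of the 9437 members in wild-type lower tract (horizontal) and wild-type spermathecae (vertical), each the mean log2(signal + 4) of 2 arrays, with members called higher in spermathecae in orange, lower in blue and not called in grey. Labelled genes are described in the text, and more blue than orange points lie beyond the dashed lines that mark a log2 difference of 2.

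**Figure D2:**
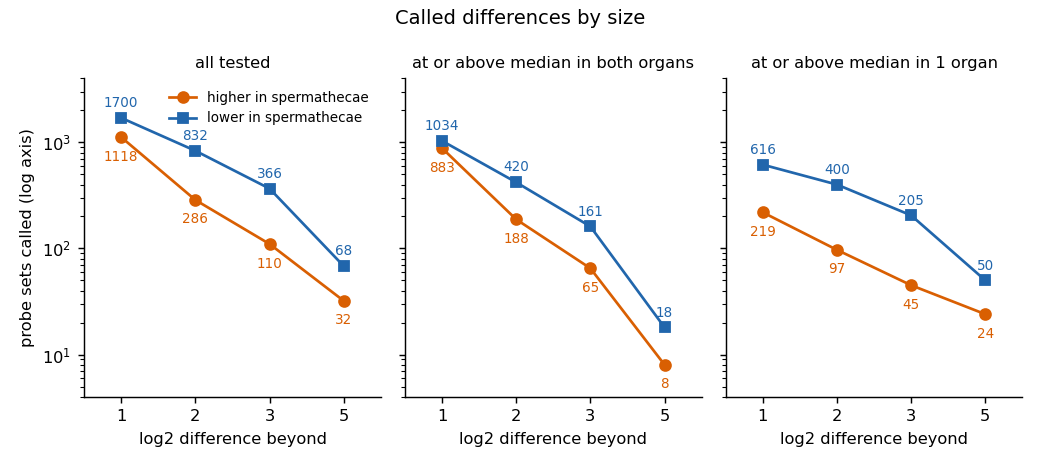
Number of probe sets called higher (orange) or lower (blue) in wild-type spermathecae beyond log2 differences of 1, 2, 3 and 5 on a log axis, split by whether the probe set was at or above the array median in both organs or in 1. Lower exceeds higher at each size, from 1118 against 1700 beyond 1 to 32 against 68 beyond 5.

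Transcription factors separated the organs into different sets. The spermathecae carried the wing-field factor vestigial, the GATA factors pannier and serpent, Lim1, lozenge and Hr39, while the knirps family, drumstick, engrailed and empty spiracles belonged to the lower tract. Vestigial (vg), a cofactor known for specifying the wing, read 1650 and 1565 in spermathecae against 7.43 and 0.823 in the lower tract. Its log2 difference was 7.76 (SE 0.353, adjusted p = 1.39e-07), and its other probe set gave 6.70. The lower tract values lie near the bottom of the scale, so the size of such a difference depends on the pseudocount.

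Pannier (pnr), a GATA factor of the dorsal body and heart, read 2155 and 1501 against 60.8 and 46.8, a difference of 4.97 (SE 0.207, adjusted p = 8.90e-08). Serpent (srp), the GATA factor of fat body and blood cells, read 2332 and 2235 against 127 and 160, a difference of 3.96 (SE 0.170, adjusted p = 1.02e-07). The cofactor u-shaped (ush), which binds Pannier, was higher with them at 599 and 475 against 125 and 94.3, a difference of 2.26 (adjusted p = 0.000317). All 3 were as clearly separated in the mutant organs, where the differences were 4.66, 3.64 and 2.44. Serpent and u-shaped also stand in the list of blood cell genes, whose other called members except lozenge were lower in spermathecae.

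Lim1, a LIM homeodomain factor, read 2520 and 1971 against 254 and 339, a difference of 2.91 (SE 0.202, adjusted p = 2.25e-06). Lozenge (lz) was faint and yet distinct, at 156 and 175 against 14.3 and 7.75, with a difference of 3.53 (SE 0.326, adjusted p = 1.70e-05). Both had no overlap between the organs.

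The factors of the lower tract were close to the floor in spermathecae. Knirps (kni), known for embryonic patterning and for tracheal and wing vein development, read 0.734 and 1.23 in spermathecae against 196 and 284 in the lower tract, a difference of -5.59 (SE 0.301, adjusted p = 3.81e-07). Its relatives knirps-like (knrl) and eagle (eg) had differences of -4.95 and -5.21. Drumstick (drm), a zinc finger factor of gut patterning, read 9.79 and 12.5 against 516 and 619, a difference of -5.24 (SE 0.265, adjusted p = 2.56e-07). Engrailed (en), the selector of posterior compartments, read 10.7 and 9.11 against 330 and 456, a difference of -4.82 (SE 0.378, adjusted p = 5.26e-06). Empty spiracles (ems), a homeodomain factor of head and spiracles, read 11.6 and 13.8 against 241 and 266, a difference of -3.95 (SE 0.258, adjusted p = 1.55e-06). For each of these the highest spermatheca array lay far below the lowest lower tract array.

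Over the list of tract patterning factors, 17 of 25 on the array were tested, with 6 higher, 8 lower and a median of -0.44. In the 9 of these at or above the median in both organs the balance was the other way, with 5 higher and 1 lower. For all 7827 genes tested, with 1 probe set each, 23.0% were higher, 22.5% were lower, and the median was 0.07. With spike-in scaling the list gave 3 higher and 9 lower. Among 13 nuclear receptors tested, 5 were higher and 6 lower; with spike-in scaling 1 was higher, Hr39 itself, and 6 were lower. Hr39 differed by 3.20 (SE 0.177, adjusted p = 4.44e-07). The paralog of Hr39, ftz-f1, was not called, with 267 and 435 in spermathecae and 116 and 311 in the lower tract. Without lower tract replicate 2 its difference was 1.53 and was called (adjusted p = 0.00835), and with spike-in scaling it was -0.10.

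**Figure D3:**
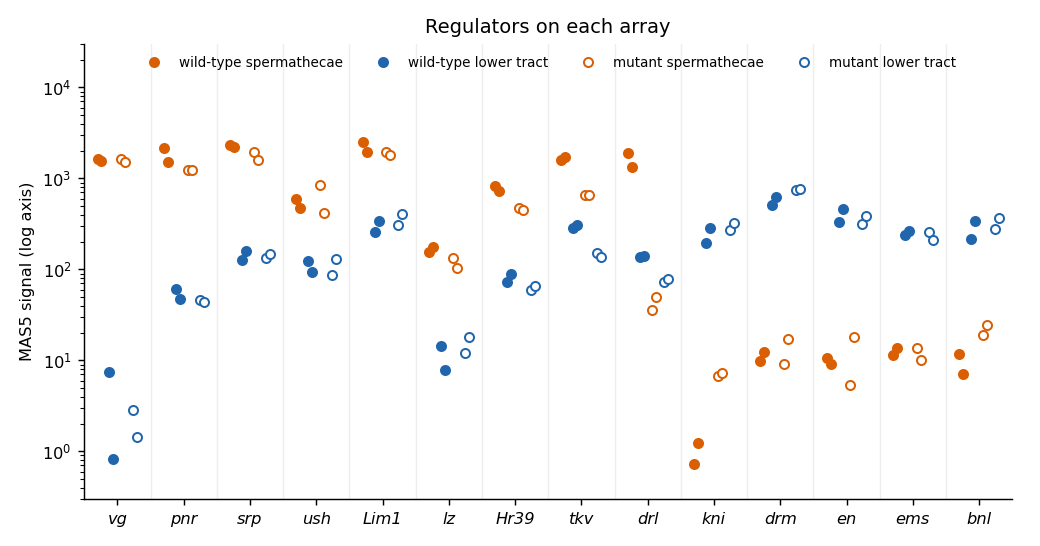
Signal on each of the 8 arrays for 14 regulators (log axis), with wild-type arrays filled and mutant arrays open, spermathecae in orange and lower tract in blue. For vg, pnr, srp, Lim1 and lz both wild-type spermatheca arrays lie above both lower tract arrays, and for kni, drm, en, ems and bnl they lie below; drl is high in wild-type spermathecae and not in mutant ones.

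Several signalling pathways held genes called in both directions. In the Hedgehog pathway the ligand hedgehog (hh) was higher in spermathecae, at 546 and 409 against 142 and 188, a difference of 1.51 (SE 0.196, adjusted p = 0.000170) that was not called with spike-in scaling. Its effector cubitus interruptus (ci) was lower, at 54.0 and 53.2 against 313 and 294, a difference of -2.42 (SE 0.203, adjusted p = 8.43e-06). For the bone morphogenetic protein pathway the type I receptor thickveins (tkv) read 1588 and 1704 against 282 and 310, a difference of 2.46 (SE 0.145, adjusted p = 6.95e-07). The type II receptor wit was also higher, by 1.8, whereas crossveinless (cv), an extracellular modulator of the same pathway, was lower by a difference of -2.79 at 152 and 201 against 1049 and 1443.

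The FGF ligand branchless (bnl), which guides tracheal branches, read 11.7 and 7.13 in spermathecae against 213 and 339, a difference of -4.37 (SE 0.310, adjusted p = 2.63e-06). Of 15 EGF and FGF pathway genes tested, 4 were higher and 8 lower (1 and 10 with spike-in scaling). Of 11 Wnt and Hedgehog genes 2 were higher and 5 lower, and 1 and 8 with spike-in scaling. In the 8 at or above the median in both organs 2 were higher and 2 lower. The other lower calls could only be lower, since their genes passed through the lower tract alone. Of 15 genes of the bone morphogenetic protein and activin pathway, 4 were higher and 4 lower, close to the share of all genes in each direction, and 2 and 6 with spike-in scaling. The 2 JAK-STAT genes called of 3 tested were higher: the phosphatase Ptp61F by 2.47 and the transcription factor Stat92E by 1.20, the latter not called with spike-in scaling.

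Secreted serine proteases, known products of the secretory cells, were among the largest differences. All of the 8 called proteases of 9 in the list were higher, with a median difference of 7.95. Spike-in scaling left the 8 calls in place. Of the 9, 3 were at or above the median in both organs, and all 3 were higher. The other calls are of genes that passed through the spermathecae alone and could only be called higher. The list holds proteases chosen as spermathecal, with earlier results of these data known, so their shared direction is not a test. CG32277 read 19120 and 14376 in spermathecae against 62.5 and 3.25 in the lower tract, a difference of 9.56 (SE 0.981, adjusted p = 3.44e-05). Send2 read 18272 and 12139 against 138 and 13.4. The ninth, CG32833, read 25 and 44.0 against 14.4 and 19.3 and was not called (adjusted p = 0.0839).

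The traces of these proteases in the lower tract were uneven between its arrays. For each of the 8, lower tract replicate 1 read at least 4.34 times replicate 2, and for CG32834 it read 61.6 times as much, 148 against 2.40. In the mutant lower tract replicate 1 was also the higher array for all 8. Of the 32 probe sets higher in spermathecae beyond a difference of 5, 11 were over 4-fold higher on lower tract replicate 1 than on replicate 2 and 0 the other way. These 11 held the 8 proteases and also other probe sets, so the unevenness was not confined to the proteases. Not every strongly spermathecal transcript shared it. On the lower tract arrays the carbonic anhydrase CAH8 read 3.04 and 3.25, and the G protein alpha subunit Galphaf read 128 and 142. The cause of the uneven traces was not tested, and it widens the SE of the protease differences but not their direction.

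Several other secreted families had more genes lower than higher. Of 15 other serine proteases tested, many of them of the immune cascades, 1 was higher and 11 were lower (0 and 11 with spike-in scaling). Of 16 serpins, which inhibit serine proteases, 2 were higher and 7 lower (2 and 12 with spike-in scaling). Of the 12 in both organs 1 was higher and 5 were lower. Spn42Dc was the highest in spermathecae, at 270 and 508 against 29.6 and 55.7, a difference of 3.06 (SE 0.332, adjusted p = 4.97e-05). Spn47C was on the lower tract side, at 24 and 28.8 against 481 and 620, a difference of -4.18 (SE 0.234, adjusted p = 4.93e-07). Of 20 odorant-binding proteins, small carriers of hydrophobic molecules, 3 were higher and 12 lower (1 and 14 with spike-in scaling). Obp56a, the largest fall of the family, read 93.5 and 64.0 against 7686 and 8248, a difference of -6.61 (SE 0.514, adjusted p = 4.92e-06). Obp83cd went against the family, at 1032 and 1233 in spermathecae against 18.3 and 21.2, a difference of 5.58 (SE 0.221, adjusted p = 8.43e-08). Of the lipocalins, GLaz was higher by 1.62, a call lost with spike-in scaling, and Karl was lower, at 16.0 and 26.1 against 203 and 235. Of 12 antimicrobial peptides 3 were higher and 2 lower, and with spike-in scaling 0 and 8. The largest of these differences was that of Defensin (Def), which read 1922 and 1390 against 11069 and 10880, a difference of -2.74 (SE 0.198, adjusted p = 2.93e-06).

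The machinery that makes and exports secreted proteins was higher in spermathecae. Of 22 genes of ER translocation and N-glycosylation tested, 21 were higher and 0 lower, with a median of 1.8; with spike-in scaling 13 were higher and 0 lower. The translocon partner TRAM read 10762 and 8394 against 917 and 880, a difference of 3.40 (SE 0.158, adjusted p = 1.60e-07), and the channel subunit Sec61beta had a difference of 2.55. Of 26 genes of COPI, COPII and Golgi transport, 22 were higher and 0 lower, with 15 and 1 under spike-in scaling. The cargo receptor gene eca, the ER retrieval receptor KdelR and the coat subunit deltaCOP had differences of 2.11, 2.08 and 2.07.

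ER chaperones were led by the Hsp90 of the ER, Gp93, at 6582 and 5721 against 827 and 748, a difference of 2.96 (SE 0.145, adjusted p = 2.14e-07). The Hsp70 of the ER, Hsc70-3, differed by 2.14. The whole list of ER folding and degradation, with 18 of 22 higher and a median of 0.90, was not separable from the scale: 3 were higher and 3 lower with spike-in scaling. The same held for the cytosolic steps. Of 34 ribosomal proteins 30 were higher and 1 lower, which was RpS5b, a copy known from the germline, and of 16 cytosolic tRNA synthetases 10 were higher and 0 lower. With spike-in scaling these were 0 higher and 2 lower, and 0 higher and 1 lower. The ribosomal count was 13 with quantile normalization and 17 without both arrays that stood apart. The tRNA synthetase count was 6 with no variance trend, 6 with the wild-type arrays alone and 4 without lower tract replicate 2. The translocation and transport genes were thus mostly called higher on both scales, and the calls of higher translation genes were lost with spike-in scaling.

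Enzymes that modify secreted proteins were among the clearest single genes. The tyrosylprotein sulfotransferase Tpst, which sulfates secreted proteins in the Golgi, read 2309 and 1908 against 127 and 128, a difference of 4.00 (SE 0.156, adjusted p = 8.27e-08). Papss, the enzyme that supplies sulfotransferases with activated sulfate, read 4226 and 3773 against 141 and 157, a difference of 4.71 (SE 0.270, adjusted p = 5.79e-07). The glucuronosyltransferase GlcAT-P read 1248 and 1626 against 24.3 and 24.3, a difference of 5.66 (SE 0.236, adjusted p = 9.20e-08). Pgant3 and Pgant6, which start mucin-type O-glycans, differed by 2.04 and 1.72. The lists to which they belong were less uniform: of 17 genes of sulfation and glycosaminoglycans 8 were higher and 2 lower, and of 14 of mucin-type O-glycosylation 6 were higher and 1 lower. The first of these counts was 5 with the wild-type arrays alone, without spermathecae replicate 2 and without lower tract replicate 2, and both lists leaned lower with spike-in scaling, at 3 and 5, and 2 and 3.

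**Figure D4:**
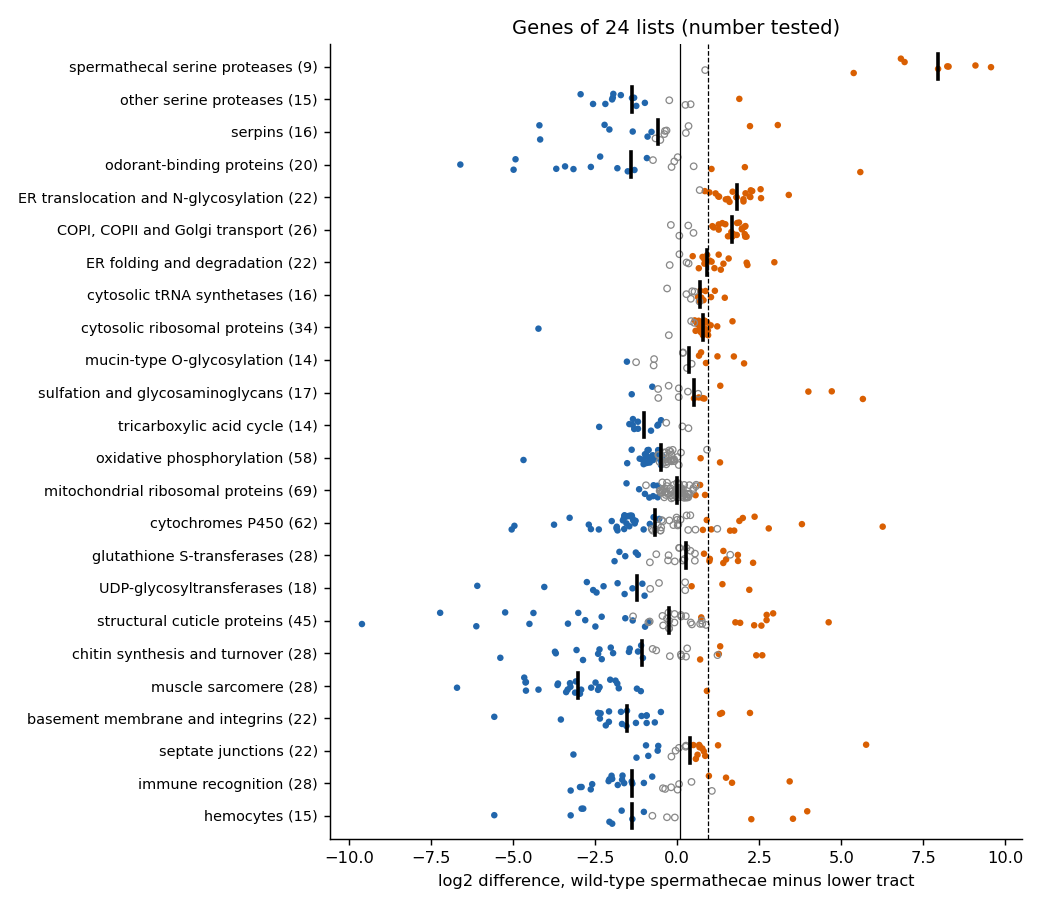
Difference between wild-type spermathecae and lower tract (log2, spermathecae minus lower tract) for each tested gene of 24 lists, with called genes filled, the median of each list as a black bar, the median of all genes as a solid line (0.07) and the position that 0 would take with spike-in scaling as a dashed line (0.95). Protease, translocation and transport lists lie mostly right of the dashed line, muscle and basement membrane mostly left of 0, and ribosomal proteins between the lines.

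Of 28 genes of chitin synthesis and turnover, 5 were higher and 15 lower, and 2 and 20 with spike-in scaling. Among the 17 in both organs 5 were higher and 7 lower. Both of the largest rises were in enzymes that make the sugar precursor: Gfat1, the first enzyme of the hexosamine pathway, differed by 2.41 and Gnpnat, its acetyltransferase, by 2.59. Gfat1 read 4252 and 4132 against 754 and 822. Those lower included the chitin deacetylase verm, at 3.65 and 1.64 against 309 and 239, a difference of -5.39 (SE 0.307, adjusted p = 5.42e-07). The chitin-binding protein Gasp read 302 and 259 against 1321 and 1623. These precursors also feed N-glycans, and the use made of them was not measured.

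Structural cuticle proteins were found on both sides, in different members. Of 45 tested, 9 were higher and 15 lower (6 and 19 with spike-in scaling), and of the 15 in both organs 5 were higher and 6 lower. Pcp, a pupal cuticle protein by name, read 4.25 and 0.926 in spermathecae against 5190 and 4784, a difference of -9.61 (SE 0.240, adjusted p = 1.25e-08). Cpr65Au, at 29 and 48.5 against 5689 and 6855, and Cpr47Ef, at 5.70 and 11.5 against 892 and 815, followed with -7.23 and -6.13. Cpr62Bb was the main cuticle gene of the spermathecae, at 3631 and 2460 against 101 and 138, a difference of 4.61 (SE 0.269, adjusted p = 6.50e-07), and Cpr47Ee differed by 2.72. The zona pellucida protein piopio (pio), which links epithelia to apical matrix, read 551 and 442 against 3753 and 3847, a difference of -2.93. It was 1 of 5 lower, with 0 higher, in a list of 9 genes, with 7 lower under spike-in scaling. Of the 5 list genes in both organs 3 were lower and 0 higher. Not all of the list are zona pellucida or apical matrix proteins. It also holds the actin bundler forked (f), which was lower, and the cell surface protein tartan (trn), which was not called.

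Muscle genes were lower in spermathecae almost throughout. Of 28 sarcomere genes tested, 27 were lower in spermathecae and 1 was higher, with a median of -3.03 and 27 lower with spike-in scaling. The actin Act87E read 61.9 and 81.9 against 7370 and 8464, a difference of -6.71 (SE 0.176, adjusted p = 1.25e-08). Troponin C (TpnC73F) read 163 and 226 against 4797 and 5158, a difference of -4.66 (SE 0.171, adjusted p = 6.68e-08). Muscle protein 20 (Mp20) read 796 and 703 against 9134 and 9566, a difference of -3.64. The titin-like sls and the myosin light chain Mlc2, fixed as muscle markers, were lower too, by -4.23 and -3.34. Summed over the 3 matched muscle markers, signals were 301 and 399 in spermathecae and 11040 and 12770 in the lower tract.

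Basement membrane genes were lower as well. Of 22 genes of basement membrane and integrins, 19 were lower and 3 higher, with a median of -1.54 and 19 lower with spike-in scaling. Peroxidasin (Pxn), which crosslinks collagen, read 45.8 and 30.8 against 1902 and 2069, a difference of -5.58 (SE 0.253, adjusted p = 1.39e-07). Papilin (Ppn) and perlecan (trol) differed by -3.55 and -2.41. The 3 that were higher were the integrin alpha chains mew, by 2.22, and scb, by 1.30, and the laminin alpha chain wb, by 1.36. Mew read 937 and 797 against 187 and 179, while scb and wb were not called with spike-in scaling.

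In the septate junctions, which seal insect epithelia, 11 of 22 were higher and 6 lower, with 6 and 5 without both arrays that stood apart and 1 and 8 with spike-in scaling. The exception in size was mesh, a component of the smooth septate junctions of gut and Malpighian tubules, at 331 and 300 in spermathecae against 1.06 and 2.91, a difference of 5.75 (SE 0.318, adjusted p = 4.44e-07). Its partners there, Ssk and Tsp2A, looked up after these values were seen, were not called, with differences of -0.18 and 0.05. The sodium pump subunit nrv2 was lower, at 222 and 292 against 1749 and 3070, a difference of -3.17 (SE 0.266, adjusted p = 8.43e-06).

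Mitochondrial energy genes were called mostly on the lower tract side. Of 14 genes of the tricarboxylic acid cycle, 11 were lower and 0 higher (13 lower with spike-in scaling), with a median of -1.0; Idh3g, a subunit of isocitrate dehydrogenase, read 252 and 388 against 1670 and 1626. Of 58 genes of oxidative phosphorylation, 30 were lower and 2 higher, with 21 lower when arrays were centred on their medians and 55 lower with spike-in scaling. The ATP synthase subunit ATPsynC read 1889 and 1911 against 5396 and 5573, a difference of -1.53 (SE 0.134, adjusted p = 1.17e-05). Of 69 mitochondrial ribosomal proteins, by comparison, 3 were higher and 8 lower, with a median of -0.02, and 7 and 4 with arrays centred on their medians; with spike-in scaling 0 were higher and 40 lower. Of 13 glycolysis genes 3 were higher and 4 lower, with a median of -0.04, and 1 and 10 with spike-in scaling. Phosphofructokinase (Pfk) and Hex-C were lower, by differences of -1.24 and -1.05. Hexokinase (Hex-A), which opens glycolysis, was higher in spermathecae, at 7934 and 7174 against 2288 and 3108, a difference of 1.5 (SE 0.172, adjusted p = 7.33e-05).

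In lipid metabolism fatty acid elongases were called in both directions, more of them lower. Bond read 839 and 1254 in spermathecae against 130 and 156, a difference of 2.81 (SE 0.218, adjusted p = 4.75e-06), and CG31522, annotated in the same family, read 149 and 156 against 2612 and 3604, a difference of -4.30 (SE 0.178, adjusted p = 8.90e-08). Of 24 genes of fatty acid synthesis, elongation and desaturation, 3 were higher and 8 lower (1 and 15 with spike-in scaling). Of 6 Niemann-Pick sterol transport genes, 5 were lower and 0 higher (6 lower with spike-in scaling); Npc2f read 43.2 and 37.0 against 577 and 788. Carbonic anhydrases interconvert carbon dioxide and bicarbonate. Of 7 tested 2 were higher and 4 lower, and of the 4 in both organs 1 and 3. CAH8 read 2740 and 5729 in spermathecae and differed by 9.12 (SE 0.297, adjusted p = 4.62e-08). Its lower tract values lie near the bottom of the scale, so the size depends on the pseudocount. CAH2 read 425 and 672 against 2709 and 3125, a difference of -2.43 (SE 0.211, adjusted p = 1.06e-05).

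Of 62 genes tested in the cytochrome P450 list, 11 were higher and 30 lower, a share higher below and a share lower above those of all genes. The list was matched by name and also holds Cyp1 and Cyp40, which are cyclophilins and not cytochromes P450. Neither was called on the authors' scale, and the counts of genes tested include them. With spike-in scaling 6 were higher and 41 lower, and of the 43 in both organs 9 were higher and 18 lower. Cyp6a14 read 2803 and 3403 against 203 and 234, a difference of 3.80 (SE 0.169, adjusted p = 1.25e-07). Cyp305a1 read 879 and 819 against 9.79 and 4.96, a difference of 6.26 (SE 0.338, adjusted p = 3.85e-07). Cyp4d21 was the reverse, at 1.36 and 5.05 against 204 and 223, a difference of -4.96 (SE 0.262, adjusted p = 3.42e-07). Of 18 UDP-glycosyltransferases, which conjugate sugars to small molecules, 3 were higher and 11 lower (0 and 12 with spike-in scaling), led by Ugt307A1 at 5.55 and 2.52 against 502 and 572. Glutathione S-transferases showed 9 higher and 5 lower of 28 on the authors' scale and 3 and 12 with spike-in scaling; GstS1 differed by 2.31 and GstE1 by 1.85.

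Genes of nerves and reception were called in both directions. Of 31 neuronal and synaptic genes on the array, 15 were tested, where 7827 of all 11982 genes with 1 symbol were. Of the 15, 2 were higher and 7 lower (4 lower without lower tract replicate 2, and 0 and 10 with spike-in scaling). Only 4 were at or above the median in both organs, 2 of them higher and 1 lower, and the 6 other lower calls are of genes that passed through the lower tract alone and could only be called lower. Among the fixed neuronal markers, elav read 159 and 167 against 102 and 189 (adjusted p = 0.560), and nSyb and brp lay below the array median on all 4 arrays. The potassium channel Shal read 9.29 and 3.01 in spermathecae against 383 and 435, a difference of -5.42 (SE 0.318, adjusted p = 6.94e-07). The GABA transporter Gat read 9.39 and 1.92 against 497 and 652, a difference of -6.01 (SE 0.348, adjusted p = 6.23e-07). The vesicular monoamine transporter Vmat, which loads octopamine and other amines, read 21.5 and 2.42 against 204 and 188, a difference of -3.97 (SE 0.530, adjusted p = 0.000208).

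Peptidases that clip neuropeptides divided. Nep2 read 10156 and 7969 in spermathecae against 1764 and 1841, a difference of 2.32 (SE 0.159, adjusted p = 2.05e-06), and Nep1 read 142 and 125 against 1486 and 1516, a difference of -3.46 (SE 0.155, adjusted p = 1.25e-07). Rickets (rk), the receptor of the hormone bursicon, read 467 and 492 against 38 and 48.1, a difference of 3.37 (SE 0.258, adjusted p = 4.35e-06). The sex peptide receptor SPR was bright in both organs, at 6713 and 5448 against 4072 and 5362, and was not called (difference 0.37, SE 0.190, adjusted p = 0.142). Its direction depended on the scale: it was called higher with arrays centred on their medians (0.54, adjusted p = 0.0426) and lower with spike-in scaling (-0.58, adjusted p = 0.0246). The cation and chloride cotransporter NKCC read 2.81 and 4.89 against 147 and 149, a difference of -4.29 (SE 0.355, adjusted p = 7.63e-06).

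Immune recognition genes were mostly lower in spermathecae. Of 28 tested, 4 were higher and 17 lower, with a median of -1.38, and of the 18 in both organs 3 and 10. With spike-in scaling 1 was higher and 21 lower. The amidases that degrade bacterial cell wall peptidoglycan were split: PGRP-SC2 read 2860 and 3177 against 224 and 342, a difference of 3.43 (SE 0.254, adjusted p = 3.55e-06), and PGRP-LB read 106 and 74.5 against 673 and 776, a difference of -2.97 (SE 0.216, adjusted p = 3.14e-06). Of 17 genes of Toll and Imd signalling 2 were higher and 6 lower (0 and 11 with spike-in scaling), among them the receptor Tollo (-4.61) and the NF-kappaB factor dorsal (dl, -2.21).

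Markers of other cell types were also unequal between the organs. Of the 15 blood cell genes tested, 9 were lower and 3 higher (12 and 3 with spike-in scaling), and of the 8 in both organs 4 and 2. All 3 of the fixed blood cell markers were lower, and their summed signal was 109 and 80.4 in spermathecae against 2237 and 2475 in the lower tract. Most of the lower tract sum was Pxn, at 1902 and 2069, which is also counted in the basement membrane list. The 2 other markers differed by less. Hemolectin (Hml) read 50.6 and 33.6 against 300 and 355, and NimC1 read 12.3 and 16.1 against 35.1 and 51.8. Of 12 fat body genes 7 were lower and 1 higher (11 and 0 with spike-in scaling); the summed signal of the 3 fixed markers was 256 and 203 against 1079 and 750.1, with Fbp1 below the median on all arrays. Of 7 tracheal genes tested only 1 was at or above the median in both organs, Gasp, which was lower; the 5 other lower calls, kni and verm among them, are of genes that did not reach the median in both organs, so their count says nothing of the list. The matched fixed tracheal marker btl went the other way, at 41.7 and 46.7 against 32.4 and 3.70. It was not called (difference 1.52, adjusted p = 0.0635). The part of muscle, blood, fat body and tracheal cells in the differences above was not tested.

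Several germline transcripts were uneven between the lower tract arrays. Oskar (osk), which specifies germ cells, read 556 on lower tract replicate 1 and 20.8 on replicate 2, against 2.52 and 0.799 in spermathecae. RpS5b read 2109 and 78.1 there, and Cyclin B (CycB) 1134 and 88.2. Gurken (grk), a ligand of the egg, was different, at 446 and 563 on the lower tract arrays and 39.5 and 95.2 on the spermatheca arrays. Of 10 germline genes tested, 6 were lower and 2 higher, and with spike-in scaling 8 and 0. Of the 5 in both organs 2 were lower and 2 higher. The other lower calls are of genes that passed through the lower tract alone and could only be called lower. Markers of follicle cells, male accessory gland and sperm stayed low: summed signals were 20.9 to 52.8, 15.1 to 35.8 and 3.54 to 14.9 over the 4 arrays.

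Outside the lists, some large differences were in genes known by a CG number alone. Among transcripts above the median in both organs, CG7443 read 62.9 and 19.7 in spermathecae against 10222 and 10216, a difference of -8.0 (SE 0.651, adjusted p = 6.76e-06), and CG7300 read 35.4 and 55.6 against 8611 and 8545, a difference of -7.47. On the spermathecal side Galphaf read 9661 and 9413, a difference of 6.10 (SE 0.159, adjusted p = 1.25e-08). Epac, an exchange factor switched on by cyclic AMP, read 963 and 964 against 30.8 and 29.9, a difference of 4.82 (SE 0.167, adjusted p = 5.09e-08).

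Genes with large differences often lay next to each other. Of 235 genes higher beyond a log2 difference of 2, 35 (14.9%) had an adjacent annotated gene that was also higher beyond 2, whereas 3.84% of all 7765 placed and tested genes had such a neighbour. Of 663 genes lower beyond 2 it was 149 (22.5%), against 9.20% of all. Counting only tested genes as neighbours, the shares were 18.7% against 5.90% and 30.8% against 16.1%. A total of 14 runs held at least 3 such genes. The longest was on chromosome 2L, where CG17107, CG7299, CG7296, CG7294, CG17108 and CG7300 were all lower in spermathecae. On 3R, CG11878, CG10513, CG10514, CG11892 and CG31300 were lower, and on 2L the proteases CG17239, CG17234 and Send1 were higher. Adjacent genes can be copies of each other, and how far probes are shared between copies was not tested. The shares are a description, and no test was made of them.

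The organ differences were then looked up in the mutant arrays, whose group means share no array with the wild-type ones. Both comparisons came from 1 fit with a shared estimate of the spread, so their calls are not independent. Of all 2243 probe sets called higher in wild type, 1727 (77.0%) were also called higher in the mutant. Of all 2175 called lower, 1638 (75.3%) were also called lower. The share of all tested probe sets called in the mutant is not given here. Of the 286 probe sets higher beyond 2 in wild type, 249 were also called higher in mutant spermathecae over mutant lower tract, 1 was called lower and 36 were not called. Of the 832 lower beyond 2, 760 were also called lower, 2 higher and 70 not called. A difference between the genotypes in the organ difference was called by the interaction test for 308 of the 10113 probe sets (3.05%), of which 234 were called in the wild-type comparison. This count depended on single arrays. It was 116 and 139 when replicates 1 and 2 of the mutant lower tract were left out in turn, 171 when either of the mutant spermatheca arrays was, and 190 without wild-type lower tract replicate 1. Among those higher beyond 2 it was called for 38 (13.3%), with the difference smaller in the mutant for 28, and among those lower beyond 2 for 55 (6.61%), smaller for 37. A large wild-type difference also takes part in the interaction, so these shares are larger by construction than the share of all probe sets. Choosing probe sets by that difference also favours a smaller difference in the mutant, so the counts of 28 and 37 are descriptions only.

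A few of the clearest spermathecal genes lost their organ difference. GlcAT-P, Papss and Cpr62Bb, with wild-type differences of 5.66, 4.71 and 4.61, had differences of 0.58, 0.28 and -0.23 in the mutant (limma interaction, adjusted p = 0.000139, 0.000348 and 0.000182). The Wnt receptor derailed (drl) read 1895 and 1333 in wild-type spermathecae against 137 and 140, a difference of 3.48 (SE 0.227, adjusted p = 1.50e-06), and in the mutant its difference was -0.80 (interaction adjusted p = 0.000172). CG30271 kept a part, with 8.04 in wild type and 4.36 in the mutant (interaction adjusted p = 0.000349). Obp69a changed side, at -3.42 in wild type and 1.35 in the mutant (interaction adjusted p = 0.000165). The regulators above were not among them: vg, pnr, srp, Lim1 and lz had mutant differences of 8.02, 4.66, 3.64, 2.39 and 2.67, and interaction adjusted p from 0.459 to 0.885, which does not show that they are equal in both genotypes.

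**Figure D5:**
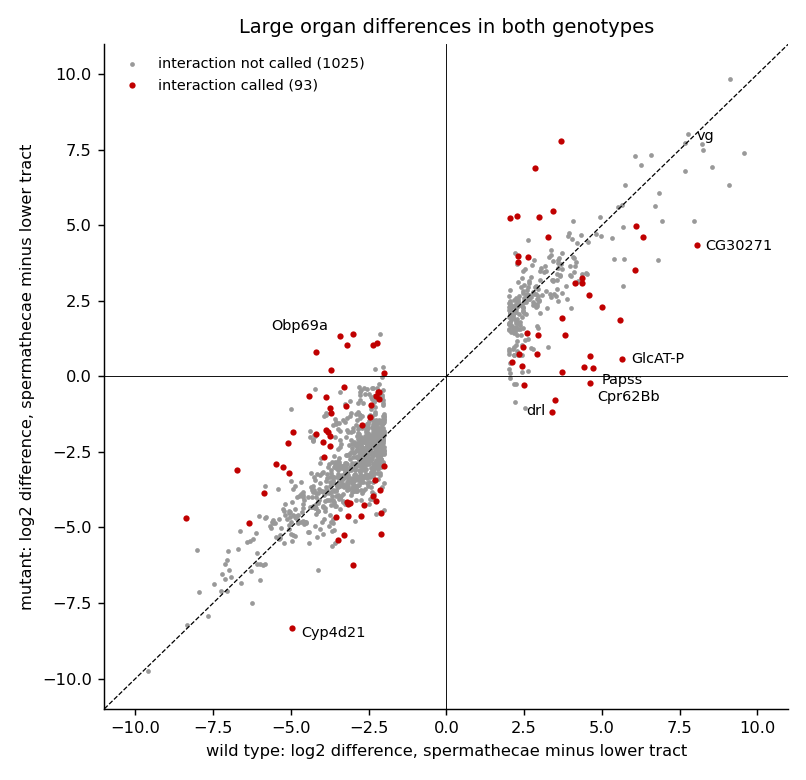
Organ difference (log2, spermathecae minus lower tract) in wild type (horizontal) and in the Hr39(04443) mutant (vertical) for the 1118 probe sets called beyond 2 in wild type, with those called by the interaction test in red. Most points lie near the diagonal; GlcAT-P, Papss, Cpr62Bb and drl lie near 0 in the mutant.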

How the data were processed

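RNA of wild-type and Hr39(04443) mutant spermathecae and lower tract was measured on 8 Affymetrix Drosophila Genome 2.0 arrays, 2 per group. The authors deposited linear intensity values from MAS5 (named without version per the submitters' processing notes); the scanning and scaling settings are not given in the sources used here, and no detection calls were used. Depth does not apply to arrays, and their number limits the precision. Of 18952 probe sets 183 controls were left out. The platform annotation gave 1 symbol to 13647 of the rest, several to 402 and none to 4720; 13544 identifiers matched release 6 of the fly annotation, which served for names and gene order only. Of the probe sets tested, 1485 carry a suffix for probes shared between transcripts.

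Values were taken to log2 after adding 4 and fitted with limma 3.58.1 in R 4.3.3, with 1 mean per group over all 8 arrays, a variance trend, 4 residual and 5.75 prior degrees of freedom, and two-sided tests. Testing required both arrays of 1 or more of the 4 groups to reach the median of their own array. The interaction is the wild-type minus the mutant organ difference. The fit was tested on simulated data.

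The 65 gene lists (1595 genes) are from general knowledge, counted on the brightest tested probe set of a gene; 171 names were not matched and are not analysed here, and 6 genes had probe sets called in opposite directions. Members and lists were chosen with earlier results of these data known. Genes to name were taken by rule: the 15 largest differences each way above the median in both organs, the 10 largest each way otherwise, listed key genes, up to 3 called genes each way per list by adjusted p, the 10 smallest interaction p, and runs of adjacent genes; fewer are named here. The fixed markers elav, nSyb, brp, Fbp1, btl, sls and Mlc2 and the genes CG32833, Ssk, Tsp2A, CG15153 and CG33631 were named apart from that rule.

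Alternatives were other normalizations, pseudocounts, filters, variance models and arrays in the fit. Descriptions of promoters and of protein ends were not run, because no sequence tables were used here.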

Additional observations from a re-analysis of the deposited data

Results flagged for a closer look

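Of the genes named above, 22 had an organ difference that differed between the genotypes by the interaction term of limma at a Benjamini-Hochberg adjusted p below 0.05. Values are log2, the wild-type organ difference minus the mutant one. For the values of a single gene, groups of 2 arrays were too small to look for an array that lies apart.

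Genes higher in wild-type spermathecae with a smaller or no difference in the mutant were GlcAT-P (interaction 5.08, adjusted p = 0.000139), Cpr62Bb (4.84, adjusted p = 0.000182), Papss (4.43, adjusted p = 0.000348) and drl (4.28, adjusted p = 0.000172). The same held for Obp83cd (3.72), CG30271 (3.69), Cyp6a14 (2.43), GstE1 (1.64) and Galphaf (1.14). In the mutant Obp83cd kept a difference of 1.86, Cyp6a14 of 1.36 and Galphaf of 4.97. GstE1, a glutathione S-transferase, went from 1.85 to 0.20.

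The difference was larger in the mutant for the amidase PGRP-SC2, 3.43 in wild type and 5.46 in the mutant (interaction -2.03, adjusted p = 0.0153), and for GstS1, 2.31 and 3.77 (interaction -1.46, adjusted p = 0.00641).

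Among genes lower in spermathecae, Obp69a (interaction -4.77), CG7296 (-3.62), the hexokinase Hex-C (-2.85), Spn47C (-2.27), CG10514 (-1.86), CG11878 (-1.78), CAH2 (-1.49), CG31300 (-1.42) and Npc2f (-1.27) had a smaller or opposite difference in the mutant. CG10514, CG11878 and CG31300 belong to the same run of adjacent genes on 3R. Cyp4d21 (interaction 3.35, adjusted p = 0.00133) and the papilin gene Ppn (1.11, adjusted p = 0.0269) were lower by more in the mutant, at -8.31 against -4.96 and at -4.66 against -3.55.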

How the results depend on the processing

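Of 118 named genes, 108 kept direction and call under all 21 alternatives run, which gave 2471 values: 2451 kept both, 15 lost the call, 3 gained one (SPR with arrays centred on their medians, ftz-f1 with the replicate block and without wild-type lower tract replicate 2) and 2 turned, SPR to -0.58 and ftz-f1 to -0.10, both with spike-in scaling. CycB, RpS5b and osk lost the call when some single arrays were left out. Spike-in scaling gave 386 probe sets higher and 4502 lower in wild type (126 and 1678 beyond a log2 difference of 2), and 441 and 3903 in the mutant. A pseudocount of 20 left 550 lower beyond 2, and a like neighbour for 10.67% of higher and 17.48% of lower genes. That lower share was 16.88% with the filter at the 75th percentile, 30.77% counting tested genes only and 28.34% with spike-in scaling. Leaving out 1 array at a time gave 1707 to 2119 higher and 1793 to 2108 lower probe sets in wild type. Beyond 2 it gave 286 to 327 higher and 831 to 884 lower, in the mutant 1561 to 2669 higher and 1622 to 2297 lower, and for the interaction 116 to 440. With the replicate number as a replicate block 2245 were higher and 2157 lower. Deviations of same-numbered arrays of wild-type spermathecae and wild-type lower tract correlated at -0.02 across probe sets. The mutant arrays were not compared in this way. Whether same-numbered arrays share more than a number across the genotypes was not tested. Of 130 list counts, 27 never moved by over 1.5 times; of 2860 values under alternatives 329 did, 79 with spike-in scaling, 29 with the filter at the 75th percentile, which tests fewer genes, and the others spread over the remaining alternatives. Spike-in scaling and leaving out both arrays that stood apart were chosen after seeing the data, and the cause of the shifts was not tested. No detection calls were used, so a low signal is not shown to be background.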
